A study of Mus musculus with 54 samples.

Results

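AP-1 is a family of transcription factors made of paired FOS, JUN, BATF and ATF proteins, and the RNA of 10 mouse genes of this family was followed in resting and stimulated CD4+ T cells. The genes were the FOS genes Fos, Fosb, Fosl1 and Fosl2, the JUN genes Jun, Junb and Jund, and the BATF and ATF genes Batf, Batf3 and Atf3. They were taken by name from the 55385 genes of the count tables, and all 10 were present in both tables. Naive CD4+ T cells were prepared from pooled lymph nodes and spleens of adult C57BL/6 mice, 8 to 10 wk old. RNA was taken either from cells left unstimulated (0 h) or after 4 h or 20 h on plate-bound anti-CD3 (3 µg/ml) together with anti-CD28 (1 µg/ml). These antibodies engage the TCR complex and the costimulatory receptor CD28. One set of 36 libraries, called the receptor set here, compared WT, Cd5-/-, Cd6-/- and Cd5-/-Cd6-/- cells, which lacked 1 or both of the CD5 and CD6 receptors. The other set of 18 libraries, the LAT set, compared WT (hDTR+) with Lat-/- (hDTR-) cells, which lacked the adaptor LAT.

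Each of the 18 conditions had 3 libraries, and the series describes them as biological replicates. The Cd6-/- allele lacks the start of exon 1, and the Cd5-/-Cd6-/- mice carry 1 deletion on chromosome 19 that runs from Cd5 to Cd6, so that neighboring sequence is lost as well. Both groups of the LAT set came from mice carrying a Lat allele that a T cell-specific Cre deletes and that then no longer makes a human diphtheria toxin receptor (hDTR). The WT cells of that set were therefore the hDTR+ cells of these mice and the Lat-/- cells their hDTR- cells. CD4+ T cells of the receptor set were enriched with a naive cell isolation kit, whereas those of the LAT set were sorted by flow cytometry.

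Members of the family bind DNA as dimers held together by a leucine zipper. JUN proteins pair with each other or with FOS proteins, FOS proteins need a JUN partner, and BATF proteins, which lack a transactivation domain, pair with JUN proteins and bind together with IRF4 and IRF8. In T cells the TCR acts on the family through LAT, which links the receptor to the RAS-ERK and calcium pathways, and AP-1 dimers bind next to NFAT at genes such as Il2. Fos, Fosb, Jun, Junb and Atf3 are immediate early genes, whose transcription starts without new protein synthesis and whose RNA is short-lived, and several of them also respond to cell stress and to tissue handling.

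In the GENCODE annotation of GRCm38, Fos (chr12:85473890-85477273) and Batf (chr12:85686669-85709087) lie on the plus strand of 1 chromosome, and Atf3 (chr1:191170296-191218039, minus strand) and Batf3 (chr1:191097847-191108945, plus strand) are neighbors on another. The other members are Fosb (chr7:19302696-19310051, minus strand), Fosl1 (chr19:5447547-5455946, plus strand), Fosl2 (chr5:32135801-32157842, plus strand), Jun (chr4:95049034-95052222, minus strand), Junb (chr8:84974484-84978718, minus strand) and Jund (chr8:70698949-70700616, plus strand). Promoter sequence from RefSeq (GRCm38.p6), covering 250 bases before to 50 bases after each annotated start, was at hand for 9 of the 10 genes (all but Fosl1). The AP-1 motif TGACTCA was in 0 of the 9 windows on either strand, against 5.2% of 32851 promoters of the same length. The CRE motif TGACGTCA was likewise in 0 of 9 (1.79% of all), and so was the CArG box, the motif of serum response factor (1.63% of all). The core TGACG, which is also contained in TGACGTCA, was in the windows of Fos, Fosb, Junb, Batf and Atf3 (5 of 9, against 20.8% of all promoters), and the TATA motif TATAAA in those of Fos and Junb (13.6% of all). Stretches of 26 bases around 6 of the 8 matches are printed below, 5′ to 3′ on the strand of the gene. The genes shown are those whose windows held a match. The windows of Fosl2 and Jun, whose RNA also changed strongly, held none. Capitals mark the motif, and in Atf3 it lies on the opposite strand and is therefore read as CGTCA. A second TGACG of Fos (bases -129 to -125) and the TATAAA of Junb, which lies at the annotated start itself (bases 0 to 5), are not printed. The matches describe letters only, and sequence outside the windows was not searched. A RefSeq start need not be the 5′ end of the gene given above. The window of Atf3 (chr1:191183284-191183583), for example, lies inside the gene.
Fos, chr12:85473813-85473838 (+), bases -66 to -62 relative to the start: gttccgcccagTGACGtaggaagtcc
Fos, chr12:85473847-85473872 (+), bases -33 to -28: acagcgcttcTATAAAggcgccagct
Fosb, chr7:19310091-19310116 (-), bases -60 to -56: ggagttgcgggTGACGcaagcgcggg
Junb, chr8:84978840-84978865 (-), bases -106 to -102: cttcctgacagTGACGcgagccgcct
Batf, chr12:85686611-85686636 (+), bases -98 to -94: ttctaacttgtTGACGtttccgccca
Atf3, chr1:191183326-191183351 (-), bases -7 to -3: taatagcattaCGTCAgcctgggatt

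Libraries held 20554354 to 45222554 gene counts in the receptor set and 17784644 to 28501095 in the LAT set. Levels are given as CPM, that is, counts scaled to the library total after TMM correction, and 3 counts in a library, taken as the floor, correspond to 0.0631 to 0.136 CPM in the receptor set and 0.105 to 0.176 CPM in the LAT set. Lat RNA was 11.56 to 19.07 CPM in the Lat-/- libraries at 0 h against 213.6 to 292 CPM in WT. The second 0 h libraries labelled Cd5-/- and Cd6-/- went against their labels, since the former held 719.5 CPM of Cd5 and 328.6 CPM of Cd6, and the latter 172.5 CPM of Cd5 and 1203 CPM of Cd6. The labels were kept, and for both genotypes the counts of members called and the main values that rest on 0 h are also given without these 2 libraries. Markers of naive CD4+ T cells were present in every library (8 of 9 listed genes, summed at 6182 to 8748 CPM at 0 h in the receptor set). B cell markers summed to 52.2 to 481 CPM at 0 h and 1.21 to 4.33 CPM at 20 h in the receptor set, and to 0.54 to 4.73 CPM over all times in the sorted cells of the LAT set. In such bulk samples, fewer cells of a type and less RNA per cell cannot be told apart.

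Jund and Batf3 could not be followed. Jund, a JUN gene usually made without stimulation, had 15 counts over all 36 libraries and 6 counts over all 18, at most 2 in any library, although its neighbor Lsm4 had 440 to 1362 and 289 to 831 counts. Batf3, a BATF gene best known from dendritic cells, had at most 29 counts in a library of the receptor set and 0 in most libraries of the LAT set. Over the WT libraries of the receptor set it had 44 counts at 0 h and 2 at 4 h, a ratio of 0.0482 (95% counting interval 0.00566 to 0.185). The highest Batf3 level at 0 h, 1.043 CPM, was in the library labelled Cd6-/- that also held the most myeloid marker RNA (538.2 CPM). The part of myeloid cells in Batf3 was not tested.

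In unstimulated WT cells of the receptor set, Junb and Fos were the members with the most RNA per kilobase of the gene length given with the counts. Mean levels per kilobase were 972.8 CPM for Junb, 272 for Fos, 143.5 for Jun, 29.63 for Batf, 13.95 for Fosb, 2.351 for Fosl2 and 0.7986 for Atf3. Junb, a JUN gene that is often described as a brake on JUN activity, measured 3223, 2304 and 1188 CPM in WT libraries 1, 2 and 3. Fos, the founding FOS gene, measured 990.8, 644.3 and 284 CPM, and Jun, the founding JUN gene, 669.3, 528.1 and 175.7 CPM. Fosb, a FOS gene with a similar time course to Fos in many cells, measured 185.8, 63.06 and 12.39 CPM. The highest WT library at 0 h was 3.49 times the lowest for Fos, 3.81 times for Jun and 15 times for Fosb, so that neighbors in the order of levels such as Fos and Jun overlapped. Fosl1, the gene of FRA1, had 0 counts in WT at 0 h.

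The spread at 0 h followed the library number in every genotype. For Fos, Fosb, Jun, Junb and Atf3, library 1 was the highest and library 3 the lowest in 4 of 4 genotypes. Fos measured 1167, 574.5 and 156.2 CPM in libraries 1, 2 and 3 labelled Cd5-/-, 888.7, 644 and 52.85 CPM in those labelled Cd6-/-, and 855.1, 647 and 170.2 CPM in Cd5-/-Cd6-/-. Fosb measured 215.4, 60.26 and 5.136 CPM labelled Cd5-/-, 185, 57.32 and 3.445 CPM labelled Cd6-/-, and 211.4, 69.16 and 6.661 CPM in Cd5-/-Cd6-/-. For Fos and Fosb, the 4 libraries numbered 1 thus lay above the 4 numbered 2, and these above the 4 numbered 3, whatever the genotype. The ratio of the highest to the lowest library within a genotype was 3.49 to 16.8 for Fos and 15 to 53.7 for Fosb. At 4 h it was 1.05 to 1.28 for Fos, 1.05 to 1.23 for Junb and 1.75 to 2.65 for Fosb. For Jun it was then 1.69 to 2.79 and for Atf3 2.4 to 2.74. The library number also ordered the levels at 4 h, where library 1 was the lowest in every genotype for these 5 genes. Of 11 other genes listed as responding to handling, 2 divided in the same order in 4 of 4 genotypes (Dusp1 and Nr4a1), 2 in 2 (Egr1 and Btg2), 4 in 1 (Hspa1a, Hspa1b, Hsp90aa1 and Dnajb1) and 3 in 0 (Hspa8, Zfp36 and Ier3). In the LAT set, library 2 was the lowest of the 3 at 0 h in both genotypes for Fos, Jun and Junb. Fos measured 554.8, 271 and 469.7 CPM in WT and 394.2, 190.4 and 390.2 CPM in Lat-/- cells, and Junb 1509, 788.6 and 1912 CPM in WT and 1665, 741.4 and 2420 CPM in Lat-/- cells. The labels do not say what a library number stands for, and the part of cell preparation in these levels was not tested.

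**Figure D1:**
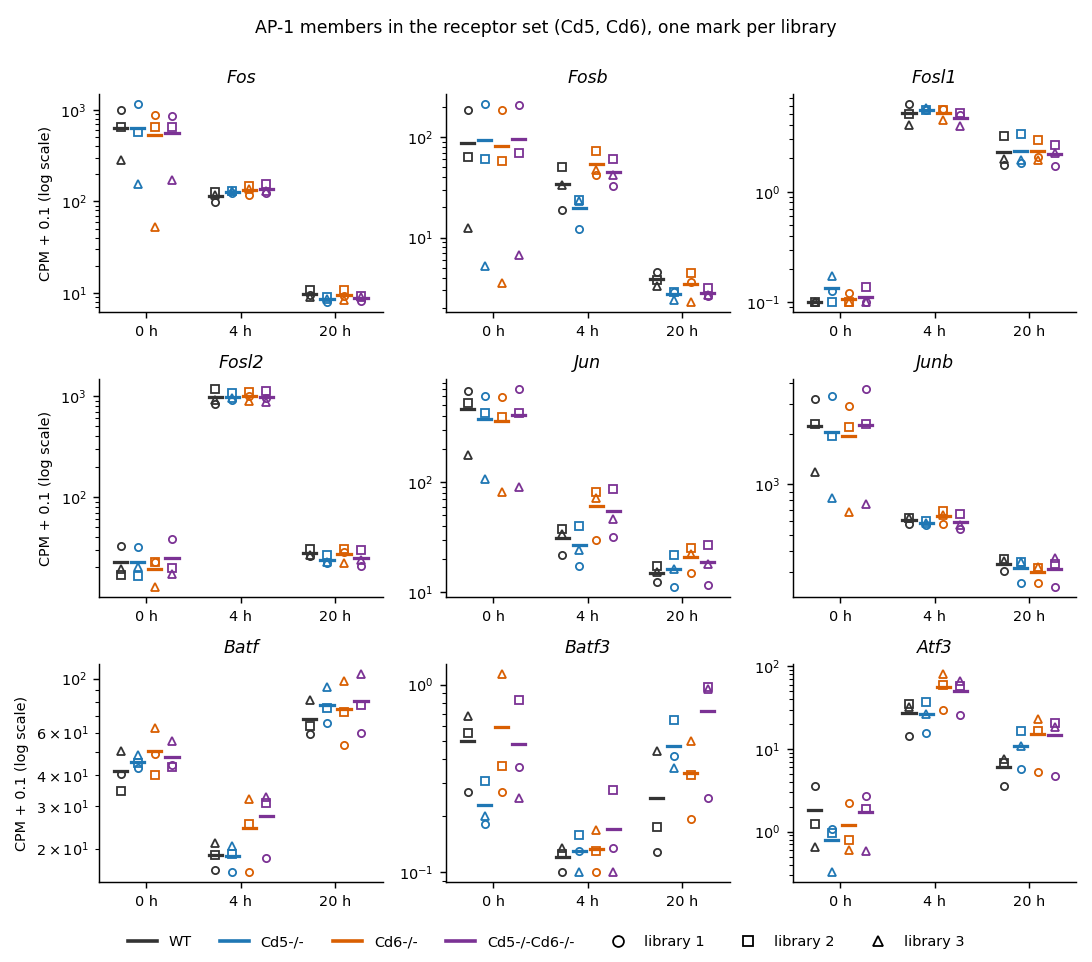
RNA levels of 9 AP-1 genes in the receptor set (CPM + 0.1 on a log axis) at 0, 4 and 20 h; colors are the 4 genotypes, circles, squares and triangles are libraries 1, 2 and 3, and bars are group means of 3 libraries. At 0 h the circles lie highest and the triangles lowest for Fos, Fosb, Jun, Junb and Atf3, and at 4 h the 12 libraries of Fosl2 lie between 839.1 and 1180 CPM.

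After 4 h of stimulation of WT cells, Fosl2, Fosl1 and Atf3 rose and Fos, Jun and Batf fell in both sets, while Junb and Batf3 were called lower in the receptor set. In the receptor set 8 of the 10 genes were called (3 higher and 5 lower), that is, changed more than 2-fold at an adjusted p below 0.05 in edgeR's quasi-likelihood test, against 19.3% of the 32290 genes tested. Of the same genes, 6 were called in the LAT set (3 higher and 3 lower), against 17.3% of 27780 genes. Genes with few counts are seldom called, and of the genes that passed edgeR's expression filter 37.9% of 16143 and 32.8% of 13928 were called in these comparisons. The median log2 change of the members in the receptor set was -1.61, and that of all genes expressed was -0.129. Because the LAT fit gave every gene the variance of the overall trend, its p-values for members that varied more than the trend are too small (Jun varied 12.6 times, Fos 8.34 times and Fosb 8.04 times as much). For that set the standard error and adjusted p of a fit restricted by edgeR's expression filter, in which genes keep part of their own variance, are therefore given as filtered values. In the receptor set Fos varied 2.75, Fosb 2.96, Jun 2.79, Junb 2.51, Atf3 2.67, Fosl2 1.83 and Batf 1.65 times as much as the fit used. Its p-values are thus too small as well, and filtered values are added for Fos, Fosb, Jun, Junb and Atf3 in WT cells. No call of a member in WT cells of this set was lost in the filtered fit.

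Fosl2, the gene of the FOS protein FRA2, gained the most RNA per kilobase of gene length at 4 h. It went from 32.35, 16.71 and 19.2 CPM at 0 h to 839.1, 1180 and 912.4 CPM at 4 h in WT cells of the receptor set, and back to 25.68, 30.59 and 26.41 CPM at 20 h. The log2 change at 4 h was 5.43 (SE 0.249, edgeR adjusted p = 4.23e-31). At 20 h the level differed from that at 0 h by 0.28 on the log2 scale, which was not called (adjusted p = 0.349). In the LAT set Fosl2 went from 13.41, 6.2 and 17.26 CPM to 879.8, 1113 and 765.5 CPM in WT cells, a log2 change of 6.22 (filtered SE 0.291, filtered edgeR adjusted p = 1.19e-11). At 20 h it was 29.74, 29.56 and 30.66 CPM there, called higher than at 0 h by 1.28 (filtered edgeR adjusted p = 0.000134) but not without WT library 2 of 0 h (0.966). All 4 h libraries of WT cells thus lay far above all 0 h and 20 h libraries.

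Fosl1 and Atf3 started at or near 0. Fosl1 had 495 counts at 4 h against 0 at 0 h over the WT libraries of the receptor set, at least 57-fold higher than the floor of 3 counts per library. Its levels were 6.14, 4.894 and 3.938 CPM at 4 h and 1.635, 3.059 and 1.865 CPM at 20 h. Over the WT libraries of the LAT set 354 counts stood against 2, a ratio of 199 (95% counting interval 54.6 to 1650). Atf3, a stress-responsive gene of the ATF group, rose from 3.458, 1.144 and 0.5577 CPM to 14.33, 34.59 and 32.14 CPM at 4 h in the receptor set. Its log2 change was 4.01 (SE 0.481, edgeR adjusted p = 5e-11, filtered SE 0.724 and 2.27e-05), and it stood at 3.495, 6.635 and 7.573 CPM at 20 h. Atf3 in the LAT set went from 7 counts over the WT libraries at 0 h to 2895 counts at 4 h, a ratio of 464 (225 to 1160). Both genes therefore peaked at 4 h among the 3 times, as did Fosl2.

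Fos fell at each later time in WT cells. It went from the 0 h levels given above to 99.65, 127.3 and 118.5 CPM at 4 h and 9.499, 10.69 and 8.981 CPM at 20 h in the receptor set, with no overlap between the times. The log2 change was -2.47 at 4 h (SE 0.406, edgeR adjusted p = 4.32e-07, filtered SE 0.617 and 0.00103) and -6.04 at 20 h (SE 0.482, adjusted p = 1.54e-18, filtered SE 0.732 and 2.5e-08). It went in the LAT set to 147.5, 140.5 and 162.5 CPM and then to 9.842, 11.21 and 9.101 CPM, a log2 change of -1.52 at 4 h (filtered SE 0.359, filtered edgeR adjusted p = 0.00143) and -5.42 at 20 h. Within same-numbered WT libraries of the receptor set the change at 4 h was -3.31, -2.33 and -1.26 on the log2 scale, so all 3 were lower by amounts that differed with the 0 h level. In the cells labelled Cd6-/-, where libraries of 0 h and 4 h were not taken to be paired and share only a number, it was -2.92 and -2.11 for libraries 1 and 2 but 1.38 for library 3, whose 0 h level of Fos was the lowest of the set.

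Fosb at 4 h depended on which 0 h library it was set against. Its 4 h levels were 18.8, 49.87 and 33.63 CPM in WT cells of the receptor set, within the range of the 0 h libraries, and the log2 change of -1.35 was not called (edgeR adjusted p = 0.1). Without WT library 3 of 0 h it was -1.88, without library 2 of 0 h -1.54 and without library 2 of 4 h -1.74, and each of these would be called. Within same-numbered libraries the change was -3.27, -0.336 and 1.4 in WT and -2.13, 0.351 and 3.59 labelled Cd6-/-. At 20 h the WT libraries held 4.482, 3.723 and 3.235 CPM of Fosb, all below those of 0 h, a log2 change of -4.51 (SE 0.718, edgeR adjusted p = 1.39e-07, filtered SE 1.13 and 0.000831). In the LAT set WT levels of Fosb were 48.51, 17.98 and 22.27 CPM at 0 h, 34.68, 37.3 and 65.3 CPM at 4 h and 2.739, 2.838 and 3.225 CPM at 20 h. There too the 20 h libraries lay below all of those of 0 h (log2 change -3.33), and the change at 4 h would be called without WT library 1 of 0 h (1.19).

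**Figure D2:**
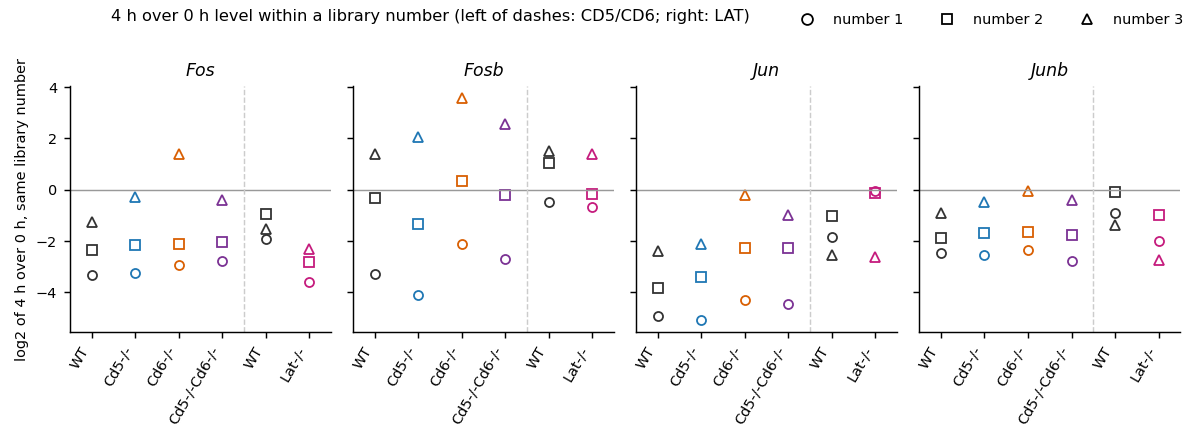
Log2 ratio of the level at 4 h over that at 0 h within the same library number (CPM + 0.5) for Fos, Fosb, Jun and Junb, where libraries of Cd6-/- cells and of the LAT set share only a number; genotypes of the receptor set stand left of the dashed line and those of the LAT set right of it, and circles, squares and triangles are libraries 1, 2 and 3. For Fosb in WT cells of the receptor set the 3 ratios are -3.27, -0.336 and 1.4, on both sides of 0.

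Both measured JUN genes fell from 0 h to 4 h in the receptor set. Jun went to 21.95, 37.13 and 33.7 CPM at 4 h in WT cells, a log2 change of -3.89 (SE 0.461, edgeR adjusted p = 3.37e-11, filtered SE 0.705 and 2.39e-05), and to 12.32, 17.32 and 15.37 CPM at 20 h. The further change from 4 h to 20 h, -1.05, was not called (adjusted p = 0.0513). It was called without WT library 1 of 4 h, library 2 of 20 h or library 3 of 20 h (-1.22, -1.15 and -1.06), with a block for the library number (-1.06, 0.0263 in edgeR) and with only the compared groups in the fit (-1.07, 6.89e-06), but not in the filtered fit (0.168). Junb went to 578, 630.1 and 629.3 CPM and then to 303, 356.1 and 348.7 CPM. Its log2 change was -1.87 at 4 h (edgeR adjusted p = 3.36e-07, filtered 0.000627) and -2.74 at 20 h against 0 h (6.33e-12, filtered 6.1e-06). In the LAT set Jun in WT cells fell from 331, 160.8 and 348.9 CPM to 92.49, 77.76 and 58.73 CPM at 4 h (-1.88, filtered SE 0.447, filtered edgeR adjusted p = 0.00155) and to 12.79, 12.68 and 14.49 CPM at 20 h. Junb there measured 806.4, 739.3 and 743.3 CPM at 4 h, and its log2 change of -0.88 stayed under the 2-fold threshold except without WT library 2 of 0 h (-1.16). Junb remained the member with the most RNA per kilobase in WT cells at 4 h (266.2 CPM per kilobase) and at 20 h (146).

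Batf had the opposite course to Fosl2. This gene of a factor that pairs with JUN proteins in activated T cells fell from 40.3, 34.57 and 50.1 CPM at 0 h to 16.28, 18.72 and 20.93 CPM at 4 h in WT cells of the receptor set, and rose to 59, 64.06 and 81.25 CPM at 20 h. The log2 change was -1.16 at 4 h (SE 0.206, edgeR adjusted p = 2.38e-06) and 1.87 from 4 h to 20 h (SE 0.209, adjusted p = 5.01e-12), while that of 20 h against 0 h, 0.71, was under 2-fold (adjusted p = 0.00274). WT levels in the LAT set were 48.31, 68.49 and 46.01 CPM at 0 h, 15.47, 19.11 and 23.01 CPM at 4 h and 54.56, 56.95 and 59.02 CPM at 20 h. The 4 h libraries lay below all others in both sets.

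At 20 h against 0 h, 6 members were called in WT cells of the receptor set (2 higher and 4 lower, against 29.6% of all genes) and 7 in those of the LAT set (3 higher and 4 lower, against 23.5%). Of the genes that passed the expression filter, 55% and 43.2% were called in these comparisons, so that 6 of 10 in the receptor set is close to the share of expressed genes. From 4 h to 20 h, 6 were called in the former (1 higher and 5 lower, against 21% of all genes and 40.3% of those expressed) and 8 in the latter (1 higher and 7 lower, against 17.2% and 32.4%), Batf being the 1 that rose in each. Of these calls, 2 lay at the 2-fold threshold. Fosl1 fell by 1.20 on the log2 scale in the receptor set and was not called without WT library 1 of 4 h (-0.999) or library 1 of 20 h (-0.995). Junb fell by 1.00 in WT cells of the LAT set and was not called without any 1 of 5 of the 6 libraries compared (-0.996 to -0.897).

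The 3 CD5/CD6 knockout genotypes followed the course of WT cells. At 4 h against 0 h, 8 members were called in cells labelled Cd5-/- (against 19.5% of all genes), 8 in those labelled Cd6-/- (18%) and 7 in Cd5-/-Cd6-/- cells (17.2%), and at 20 h against 0 h 6 in each (30%, 28.2% and 30.3%). Among the genes expressed 38.1%, 35.1% and 33.9% were called at 4 h and 56.1%, 53% and 56.3% at 20 h. The 6 members called at 20 h are thus close to the share of genes expressed. The counts at 4 h and 20 h in cells labelled Cd5-/- and Cd6-/- were also 8 and 6 without the 2 libraries that went against their labels. From 4 h to 20 h, 7, 9 and 8 members were called (21.3%, 20.8% and 21.4% of all genes, and 40.5%, 40.2% and 41.2% of those expressed). The log2 change of Fosl2 at 4 h was 5.43 labelled Cd5-/-, 5.71 labelled Cd6-/- and 5.31 in Cd5-/-Cd6-/-, that of Fos was -2.32, -1.98 and -2.02, and that of Junb -1.79, -1.59 and -1.92. Without the same 2 libraries Fosl2 changed by 5.24 and 5.83 in the first 2 of these genotypes, Fos by -2.38 and -1.82, and Junb by -1.82 and -1.49, all called. Fosb was called lower at 4 h in cells labelled Cd5-/- (-2.25, edgeR adjusted p = 0.00336), although the difference of this change from that in WT was not called, and the call was not made without library 1 of 0 h (-0.70) nor in the filtered fit (-2.21, 0.0592). Without the 2 libraries it was -2.49 and called. Batf was not called at 4 h in Cd5-/-Cd6-/- cells (-0.80, under 2-fold), and in those labelled Cd6-/- (-1.06) the call was lost without library 3 of 0 h (-0.874) or library 1 of 4 h (-0.828).

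Set against WT cells of the same time, 0 of the 10 members were called in any of the 3 knockouts at 0 h (background 0.0619% of all genes for Cd5-/-, 0% for Cd6-/- and 0.0248% for the double knockout), at 4 h (0.0743%, 0.0031% and 0.0434%) or at 20 h (0.0186%, 0.0186% and 0.0434%). DESeq2 also called 0 in each, and the 0 h counts were also 0 without the 2 libraries that went against their labels. At an unadjusted p below 0.05 in edgeR the counts, in the same order, were 3, 0 and 0 at 0 h (Fosl1 and Batf3, both near the floor, and Atf3 with 70 counts against 165 in WT, in Cd5-/-), 0, 2 and 3 at 4 h (Atf3 and Jun in Cd6-/-, and these with Batf in the double knockout) and 1, 1 and 2 at 20 h (Atf3 in each, with Batf3 in the double knockout). In the filtered fit they were 1, 0 and 0 at 0 h (Fosl1), 0, 0 and 1 at 4 h (Batf) and 0, 1 and 1 at 20 h (Atf3 in Cd6-/- and Batf3 in the double knockout). For the differences between the changes since 0 h in a knockout and in WT, 0 of 10 were called at both times (background 0% to 0.0031%), with 0 to 3 of the members in each at an unadjusted p below 0.05. Fosl2 at 4 h measured 977.1 ± 179.3 CPM in WT, 978.7 ± 85.35 in Cd5-/-, 1001 ± 99.93 in Cd6-/- and 982.4 ± 135.9 in double knockout cells (SD, n = 3). The 95% interval of its log2 difference from WT was -0.40 to 0.41 in Cd5-/- libraries, -0.37 to 0.44 in Cd6-/- libraries and -0.40 to 0.41 in the double knockout. These intervals are too narrow, since Fosl2 varied 1.83 times as much as the fit used. Its SE in the filtered fit was 0.259 in each of these comparisons. Fos at 4 h was 115.2 ± 14.12 CPM in WT against 127 ± 3.519, 134.4 ± 16.14 and 137.3 ± 16.89 CPM in the same order. Against the same-numbered WT library at 4 h, Fos was higher in 3 of 3 libraries of each knockout (log2 ratio 0.0135 to 0.324). Fosb and Jun were higher in 3 of 3 in Cd6-/- and in double knockout cells. In Cd5-/- cells Fosb was lower in 3 of 3 and Jun in 2 of 3. Fosl2 was higher in 2, 1 and 1 of 3, in the order above, and none of these differences was called.

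Atf3, Jun and Batf had differences at 4 h that did not pass the test after adjustment. For the receptor set too, the genes' own variance was larger than that used in the test (2.67 times for Atf3, 2.79 times for Jun and 1.65 times for Batf). The unadjusted p-values below are therefore too small and the intervals too narrow, and filtered values are given beside them. Atf3 at 4 h measured 29.79, 58.88 and 81.52 CPM in Cd6-/-, 25.73, 58.33 and 66.42 CPM in Cd5-/-Cd6-/- and 15.41, 37.01 and 26.6 CPM in Cd5-/- libraries 1, 2 and 3, with the WT libraries at 14.33, 34.59 and 32.14 CPM. The log2 difference from WT was 1.07 in Cd6-/- (95% interval 0.27 to 1.87, unadjusted p = 0.0108 in edgeR, adjusted p = 1) and 0.89 in Cd5-/-Cd6-/- (0.09 to 1.69). In the filtered fit these were 1.06 (SE 0.615, unadjusted p = 0.0945) and 0.89 (SE 0.613, 0.158). At 20 h it was 1.34 in Cd6-/- (unadjusted p = 0.00242 in edgeR), 1.30 in Cd5-/-Cd6-/- (0.00319) and 0.91 in Cd5-/- (interval 0.07 to 1.74), each with an adjusted p of 1 and with filtered unadjusted p of 0.045, 0.0514 and 0.171. Atf3 was higher than in the same-numbered WT library in 3 of 3 libraries for these 5 differences. For Cd6-/- at 20 h the libraries were not taken to be paired with those of WT and share only a number. Library 1 was the lowest of its group in WT, Cd6-/- and Cd5-/-Cd6-/- at 4 h and 20 h, and without library 1 of Cd6-/- at 20 h the difference would be called (1.77, adjusted p = 0.0289), likewise without library 1 of Cd5-/-Cd6-/- (1.73, 0.0175). Jun at 4 h measured 30.07, 81.64 and 71.08 CPM in Cd6-/- and 31.43, 87.56 and 45.9 CPM in Cd5-/-Cd6-/- libraries, a log2 difference of 0.98 (0.16 to 1.79) and 0.83 (0.02 to 1.65) from WT, not called. The filtered unadjusted p of Jun was 0.139 (SE 0.638) and 0.205 (SE 0.636). Batf at 4 h was 18.27, 30.78 and 32.62 CPM in Cd5-/-Cd6-/- libraries, 0.55 (0.15 to 0.95) above WT (filtered unadjusted p = 0.0391 in edgeR).

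The change in Atf3 since 0 h was larger in cells labelled Cd5-/- than in WT at 20 h by 2.22 on the log2 scale (SE 0.687, edgeR adjusted p = 1), which was not called. Without the 2 libraries that went against their labels it was 2.43 and called (0.029), and with only the 4 compared groups in the fit it was 2.23 and called (0.000387). Atf3 at 0 h, on which this difference rests, measured 0.9734, 0.8653 and 0.2222 CPM labelled Cd5-/- against 3.458, 1.144 and 0.5577 CPM in WT, so the groups overlapped.

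**Figure D3:**
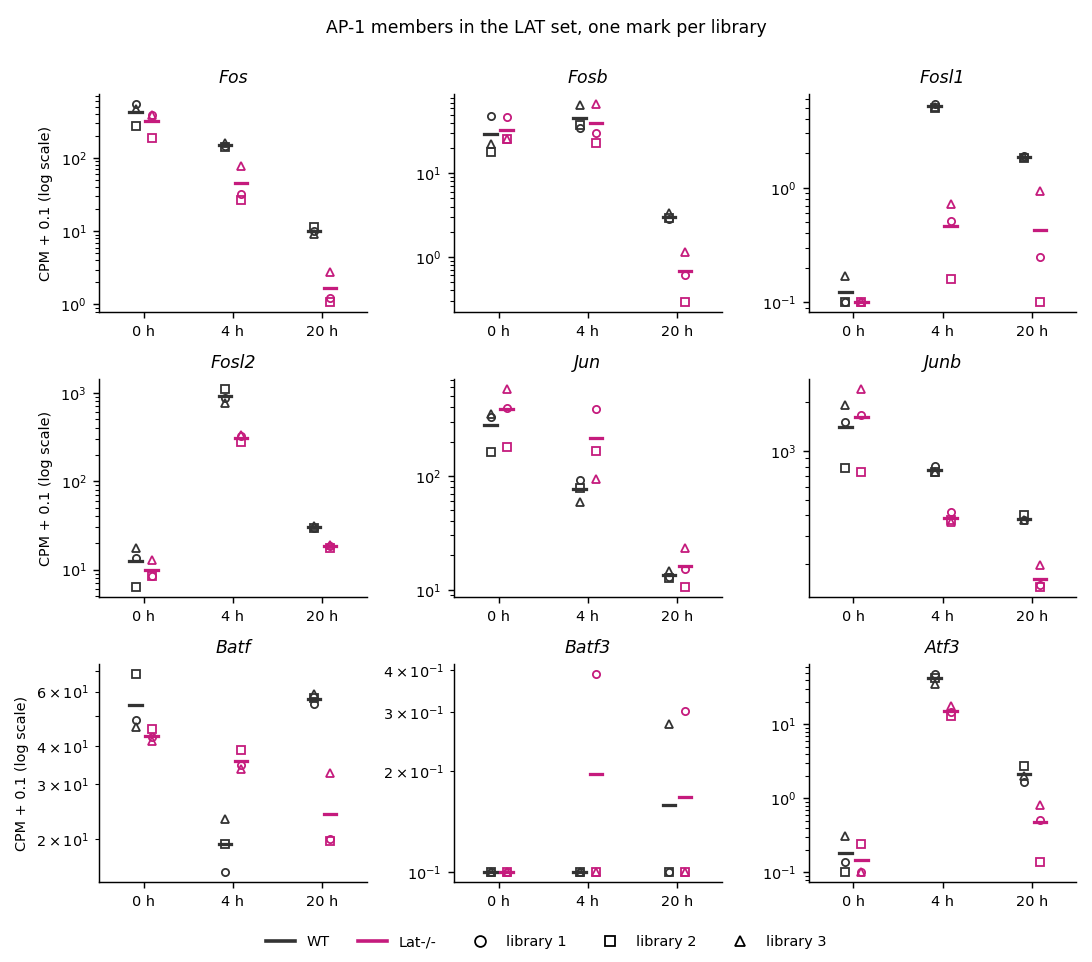
RNA levels of 9 AP-1 genes in the LAT set (CPM + 0.1 on a log axis) at 0, 4 and 20 h in WT and Lat-/- cells; circles, squares and triangles are libraries 1, 2 and 3 and bars are group means of 3 libraries. At 20 h the Lat-/- libraries of Fos lie between 0.9648 and 2.691 CPM, all below those of WT.

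In resting Lat-/- cells no member passed the test against WT. At 0 h 0 of 10 members were called, against 0.961% of all genes, with 4 at an unadjusted p below 0.05 in edgeR (Fos, Fosl2, Jun and Batf) and 0 called by DESeq2. In the filtered fit 0 of the 8 members tested were at an unadjusted p below 0.05 (Batf 0.0869, Fosl2 0.215, Fos 0.256 and Jun 0.298). Junb measured 1609 ± 840.7 CPM in Lat-/- and 1403 ± 569.3 CPM in WT cells, and Fos 324.9 ± 116.5 and 431.8 ± 145.6 CPM (SD, n = 3), so the groups overlapped in both. Batf was 42.7, 45.26 and 41.36 CPM in Lat-/- against 48.31, 68.49 and 46.01 CPM in WT libraries. The family still changed after stimulation in Lat-/- cells. No unstimulated libraries were taken at 4 h or 20 h, so stimulation and time in culture cannot be told apart in any genotype. At 4 h 5 members were called (3 higher and 2 lower, against 6.7% of all genes), at 20 h against 0 h 6 (2 higher and 4 lower, against 4.21%), and from 4 h to 20 h 6, all lower (against 4.1%, and 2.1% called lower). Among the genes expressed 12.3%, 7.08% and 6.92% were called in these comparisons. The 20 h calls of Fosl1 and Atf3 rested on library 3 and were lost without it (3.73, adjusted p = 0.158, and 1.99, 0.127), and that of Atf3 (2.90) was also lost in the filtered fit (0.0522). In that library Lat RNA was the highest of the Lat-/- libraries of its time (17.16 CPM against 11.68 and 9.908).

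At 4 h Fosl2, Fos, Fosl1 and Atf3 were lower and Jun was higher in Lat-/- than in WT cells, 5 of 10 members called against 11.7% of all genes and 22.7% of those that passed the expression filter. The median log2 difference was -0.585 over the members and 0.03 over all genes expressed. Fosl2 still rose in Lat-/- cells, from 8.391, 8.483 and 12.69 CPM to 325.3, 274.2 and 331.2 CPM (log2 change 4.97, filtered edgeR adjusted p = 5.76e-10), but stayed below all 3 WT libraries. The difference from WT at 4 h was -1.57 (filtered SE 0.235, edgeR adjusted p = 2.18e-23, filtered 2.3e-05). Fos measured 32.53, 26.3 and 78.55 CPM in Lat-/- cells, below all WT libraries, with a difference of -1.71 (filtered SE 0.365, edgeR adjusted p = 7.59e-27, filtered 0.000698). Fosl1 had 10, 1 and 12 counts in the Lat-/- libraries, 23 in all against 354 in WT, a ratio of 0.075 (95% counting interval 0.0469 to 0.114). Its fitted difference was -3.75 (filtered SE 0.745, edgeR adjusted p = 3.32e-12, filtered 0.000512).

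Atf3 at 4 h measured 14.48, 12.68 and 17.48 CPM in Lat-/- cells, and no Lat-/- library reached the WT range of 35.46 to 48.37 CPM. The log2 difference was -1.50 (filtered SE 0.343, edgeR adjusted p = 1.08e-10, filtered 0.00135). Fosb did not separate the groups, with 29.88, 23.01 and 67.89 CPM in Lat-/- against 34.68, 37.3 and 65.3 CPM in WT libraries and a difference of -0.19. Junb was lower in every Lat-/- library (421.4, 374.8 and 361.6 CPM), but its difference of -0.98 stayed under 2-fold except without Lat-/- library 1 of 4 h (-1.03). Batf was higher in every Lat-/- library (34.68, 38.56 and 33.61 CPM) by 0.89, also under 2-fold except without WT library 3 of 4 h (1.06). Its level in Lat-/- cells at 4 h was close to that at 0 h (log2 change -0.28, filtered edgeR adjusted p = 0.326), whereas in WT cells Batf fell by 1.50 (filtered 2.45e-06).

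Jun was the 1 member called higher without LAT at 4 h, and this call rested on 1 library. Lat-/- libraries 1, 2 and 3 held 383.8, 164.1 and 93.69 CPM and the WT libraries 92.49, 77.76 and 58.73 CPM, so the lowest Lat-/- library lay just above the highest WT library. The log2 difference was 1.49 (filtered SE 0.443, edgeR adjusted p = 7.09e-21, filtered 0.00928), and without Lat-/- library 1 it was 0.766 and under 2-fold. The heat shock genes Hspa1a and Hspa1b divided the libraries in the same order. Hspa1a measured 471.3, 212.1 and 3.954 CPM in Lat-/- and 116.7, 77.62 and 2.867 CPM in WT libraries 1, 2 and 3, and Hspa1b 794, 338.3 and 7.595 CPM and 186.7, 114.2 and 5.356 CPM. Their part in the level of Jun was not tested. Of the 11 genes listed as responding to handling, 2 were higher (both heat shock genes) and 3 lower in Lat-/- cells at 4 h, and 0 higher and 3 lower in the filtered fit. In either direction 22.7% of the genes expressed were called in that fit. Nr4a1 and Egr1, chosen after their values were seen, were among the lower ones, as Nr4a1 was 1259, 1002 and 1336 CPM in Lat-/- against 8539, 8646 and 6426 CPM in WT, and Egr1 336.8, 239.1 and 291.5 CPM against 1570, 1625 and 1474 CPM.

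At 20 h, 6 of 10 members were lower in Lat-/- than in WT cells and 0 higher, against 24.4% of all genes called in either direction and 12.3% called lower, or 45.4% of the expressed genes in either direction. The median log2 difference was -1.24 over the members and 0.0318 over all genes expressed. Fos measured 1.112, 0.9648 and 2.691 CPM in Lat-/- against 9.842, 11.21 and 9.101 CPM in WT libraries, a difference of -2.66 (filtered SE 0.454, edgeR adjusted p = 3.16e-42, filtered 4.22e-05). Fosb measured 0.5057, 0.1855 and 1.051 CPM against 2.739, 2.838 and 3.225 CPM, a difference of -2.35 (filtered SE 0.622, edgeR adjusted p = 1.17e-17, filtered 0.0026). Fosl1 had 23 counts in Lat-/- against 129 in WT, a ratio of 0.185 (0.113 to 0.29). Of these 23 counts, 20 were in library 3 and 3 and 0 in the others, and leaving out single libraries gave log2 differences of -4.63 to -1.75, each called. In each of the 3 FOS genes the highest Lat-/- library, which was library 3, was still below the lowest WT library.

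Junb, Batf and Atf3 were also lower at 20 h. Junb measured 147.6, 143.5 and 196.6 CPM in Lat-/- against 372, 399.3 and 371.6 CPM in WT libraries, a log2 difference of -1.23 (filtered SE 0.306, edgeR adjusted p = 1.08e-15, filtered 0.00162). Batf measured 19.92, 19.63 and 32.46 CPM against 54.56, 56.95 and 59.02 CPM, a difference of -1.24 (filtered SE 0.19, edgeR adjusted p = 7.41e-13, filtered 1.17e-05). Batf was thus above WT at 4 h and below it at 20 h, since it did not rise between these times in Lat-/- cells (log2 change -0.57, under 2-fold). Atf3 had 26 counts in Lat-/- against 152 in WT, a ratio of 0.177 (0.112 to 0.27). Fosl2, at 18.46, 17.52 and 18.88 CPM, was below every WT library by less than 2-fold (-0.71), and Jun, at 14.97, 10.39 and 23.21 CPM, overlapped with WT (0.28). The change since 0 h itself differed between Lat-/- and WT cells by the test for 5 members at 4 h (against 8.71% of all genes and 16.7% of those expressed) and 3 at 20 h (against 19.5% and 37.8%), which are listed with the other observations.

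**Figure D4:**
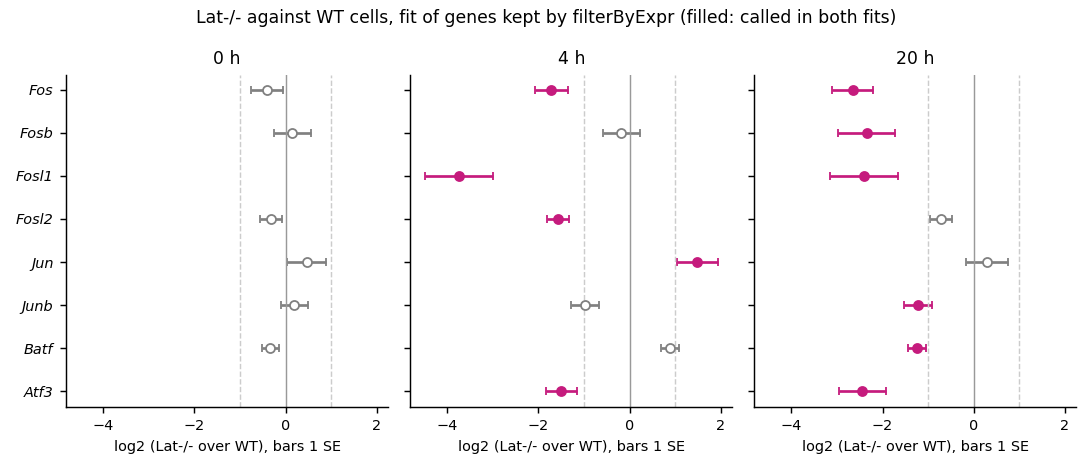
Log2 difference of Lat-/- from WT cells at 0, 4 and 20 h for the AP-1 genes, from the expression-filtered edgeR fit, with bars of 1 SE; filled symbols were called in both fits and dashed lines mark a 2-fold difference. At 4 h Jun lies at 1.49 and Fosl2 at -1.57, and at 20 h Fos lies at -2.65; Fosl1 and Atf3 are left out at 0 h, where they had at most 6 counts in a library.

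Summed over the family per kilobase of gene length, mean RNA was highest at 0 h and lowest at 20 h in both sets, which was not tested. In WT cells of the receptor set the sum was 1440 ± 683 CPM per kilobase at 0 h, 460 ± 45.3 at 4 h and 211 ± 20.5 at 20 h (SD, n = 3). The JUN genes held 77.9%, 60.2% and 71.6% of it at these times, the FOS genes 19.3%, 34.2% and 4.13%, and Batf, Batf3 and Atf3 together 2.71%, 5.57% and 24.3%. Jund, which could not be followed, entered these values with almost no counts. Any Jund RNA that was not counted is therefore missing from the sums and from the JUN share. In WT cells of the LAT set the sum was 926 ± 324, 557 ± 20 and 220 ± 7.61 CPM per kilobase, and in Lat-/- cells 996 ± 472, 325 ± 54 and 95.9 ± 20.8. In WT cells of that set the libraries of 0 h (561 to 1180) and 4 h (535 to 575) overlapped, and without the length correction their sums were 2210 ± 794 and 2020 ± 158 CPM. At 4 h the FOS genes held 30.3% in WT and 18.3% in Lat-/- cells, and the BATF and ATF genes 5.95% and 10.1%. These shares depend on the length correction, since without it the FOS genes held 61.9% in WT cells of the receptor set at 4 h.

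**Figure D5:**
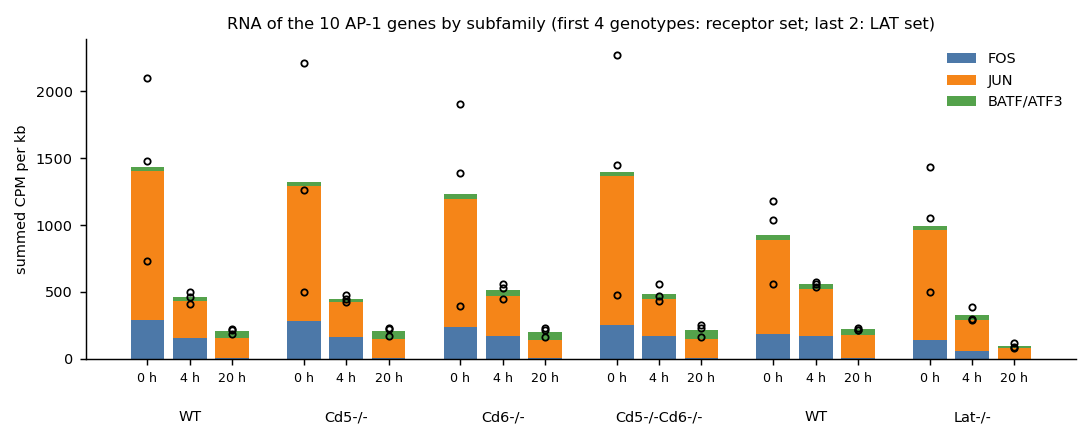
Summed RNA of the AP-1 family (CPM per kilobase) by condition, stacked by FOS, JUN and BATF or ATF genes from group means of 3 libraries, with Jund at almost no counts. Dots are the sums of single libraries. In WT cells of the receptor set the mean sum is 1440 at 0 h against 211 at 20 h, and at 20 h it is 95.9 in Lat-/- against 220 in WT cells of the LAT set.

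Among 22 other genes of basic leucine zipper factors tested in the receptor set, 7 rose and 2 fell in WT cells at 4 h, with a median log2 change of 0.475. Over all genes tested 8.24% were called higher and 11.1% lower in this comparison, and 37.9% of the genes expressed were called in either direction. The counts of this and the next 3 lists are to be read against these shares, and that of the leucine zipper genes is close to the share of genes expressed. The largest rises were of Crem (4.14), a gene of the CREB group, and of Mafg (2.88), Bach1 (2.85) and Maff (2.35), which are genes of the MAF and BACH groups. Of 5 genes of NFAT and IRF partners, 3 rose (Irf4 6.61, Irf8 3.52 and Nfatc1 2.54) and 2 fell (Nfatc2 -1.50 among them). Of 15 genes described as AP-1 targets in T cells, 12 rose and 1 fell, among them Il3 (8.27), Il2 (8.11), Tnf (5.82) and Il2ra (5.16). Of 16 genes of the MAPK and SRF pathways that act on the family, 1 rose (Mapk8 1.22) and 2 fell (Mapk3 -1.58 and Mapk14 -1.21). In the 3 knockouts of this set none of these 4 lists had a gene called against WT at 4 h or 20 h.

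In Lat-/- cells at 4 h, 1 of 21 other leucine zipper genes was higher and 6 were lower than in WT, among them Bach1 (-1.64), Mafg (-1.25), Maff (-1.19) and Atf4 (-1.13). Of all genes tested 5.51% were higher and 6.23% lower at 4 h, and 12.1% and 12.3% at 20 h. Among the genes expressed 22.7% were called in either direction at 4 h and 45.4% at 20 h. The counts of leucine zipper genes and of MAPK and SRF genes at 20 h, given below, lie under that share. Crem, in contrast, rose by 4.01 in Lat-/- and by 4.21 in WT cells. Of the 5 partner genes 2 were higher and 3 lower, with Irf4 at -2.79, Nfatc1 at -2.09, Irf8 at -1.87 and Nfatc3 at 1.14. Of the 15 described targets 3 were higher and 8 lower (median -1.91), among them Il2 (-5.05), Tnf (-3.68), Il2ra (-3.01) and Cd40lg (-2.59). Of the MAPK and SRF genes Srf was lower (-1.83) and Mapk3 higher (1.05). At 20 h the described targets were 4 higher and 8 lower, with Prdm1, the gene of BLIMP1, higher by 6.02 and Gzmb, Il2ra and Il2 lower (-5.39, -4.99 and -4.57). At that time 5 other leucine zipper genes were higher and 1 lower, Bach1 having turned from lower at 4 h to higher (3.03), and Rasgrp1 (1.99), Map3k1 (1.90), Prkcq (1.56) and Elk4 (1.19) were the MAPK and SRF genes called, all higher. The summed markers of naive CD4+ T cells were also higher in Lat-/- cells, at 8566 to 9808 CPM against 4593 to 6598 CPM in WT at 4 h and 9767 to 11220 CPM against 3623 to 3731 CPM at 20 h, and their part in these differences was not tested.

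Across the means of the 18 conditions, which share libraries within each set and cover only 3 times, the genes most like each member were as follows. Fosl2 was most like Bcl10 (Pearson r = 0.984), Rela (0.984) and Maff (0.981), out of 9853 genes averaging 50 counts or more in both sets. Jun was most like Klf4 (0.978), Def6 (0.958) and Lgals1 (0.951), and Fosb most like Lmna (0.977), Stxbp2 (0.936) and Ccdc174 (0.923). Fos was most like Adgrg3 (0.956), Rnf40 (0.953) and Dlg4 (0.946), and Junb most like Hexim1 (0.966), Acap1 (0.954) and Gga1 (0.947). Batf was like Tmem138 (0.969) and Cib1 (0.969), and Atf3 most like Dusp16 (0.962), Rnf157 (0.961) and Coq10b (0.961). Among the members themselves Fos and Junb were most alike (0.948), followed by Fos and Fosb (0.933) and Jun and Junb (0.917), whereas Fosl2 and Batf went opposite ways (-0.808). These values describe shared time courses only.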

How the data were processed

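RNA was measured by mRNA sequencing in 54 libraries, 36 of the receptor set (WT cells and the Cd5 and Cd6 knockouts) and 18 of the LAT set. Stranded libraries were read as single ends. Adapter dimers were removed with DimerRemover, STAR placed the reads on GRCm38, and the authors obtained counts per gene from featureCounts. The submitters' processing notes also name bcl2fastq 2.17.1.14. The deposited values are raw counts, in a separate table for each set, neither normalized nor pooled. The annotation release, strand setting and handling of reads matching several genes are not given in the sources used here, so that reads of overlapping genes (Jun with Junos, Junb with Prdx2, Fosl1 with Ccdc85b) may have been split. Symbols were found for 54487 of 55385 gene identifiers, and 0 columns of per-sample values were left unused. Groups and replicate numbers came from the sample labels.

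Genes with at least 1 count were kept (32290 and 27780) and tested within each set with edgeR 4.0.16 (quasi-likelihood test, TMM factors, 1 coefficient per condition, all libraries in the fit, Benjamini-Hochberg adjustment) in R 4.3.3 with limma 3.58.1. A gene was called at an adjusted p below 0.05 and a change above 2-fold, the thresholds of the study. The filtered fit kept 16143 and 13928 genes by edgeR's expression filter. DESeq2 1.42.0, size factors of the RLE method, library totals, only the compared groups, a block for the library number, the adjusted p alone and leaving out single libraries were alternatives. Scripts were tested on simulated data. Intervals of count ratios are exact at 95% and, like the floor of 3 counts, cover counting error only. No pair of replicate libraries agreed within sampling noise (chi-square per degree of freedom at least 3.02), and nothing says whether library numbers mark a shared preparation.

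Same-numbered libraries deviated together, with every correlation above 0.1, at 4 h against 0 h in WT, Cd5-/- and Cd5-/-Cd6-/- cells, at 20 h against 4 h in Cd5-/- and Cd5-/-Cd6-/- cells, between knockout and WT cells at 4 h and 20 h (Cd5-/-), 0 h and 4 h (Cd6-/-) and all times (Cd5-/-Cd6-/-), and between Lat-/- and WT cells at 0 h. The number was taken from the labels to pair the libraries in these comparisons, where the block changed no call of a member.

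The members and all gene lists were chosen with earlier results of these data known, so that no list is independent evidence. Named genes were the 10 members in every comparison, the targeted genes Cd5, Cd6 and Lat, at most 4 called genes per list (those with the largest change and at least 50 counts on average) and the 3 genes most like each member, of which 1 is not reported here. Hspa1a, Hspa1b, Nr4a1, Egr1, Lsm4 and the other genes given beside a member were chosen after their values were seen.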

Additional observations from a re-analysis of the deposited data

Results flagged for a closer look

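For 8 changes since 0 h, the change in Lat-/- cells differed from that in WT cells by the test of the difference itself (edgeR). At 4 h 8.71% of all genes and 16.7% of those expressed differed in this way. Fosl2 rose less in Lat-/- cells by 1.25 on the log2 scale (-1.248, adjusted p = 3.38e-07, filtered 0.0089), Fos fell further (-1.303, 2.96e-08, filtered 0.0546) and so did Junb (-1.18, 3.27e-07, filtered 0.0423). Jun fell less (1.022, 2.44e-05, filtered 0.223), and Batf, which fell in WT, stayed near its 0 h level (1.221, 4.08e-06, filtered 0.00187). The calls of Fos and Jun were thus lost in the filtered fit. Without Lat-/- library 1 of 4 h the value of Jun was 0.288, without WT library 2 of 0 h that of Fosl2 was -0.933 and that of Junb -0.895, without Lat-/- library 3 of 0 h that of Junb was -0.761, and without Lat-/- library 2 of 4 h that of Fos was -0.996, each under 2-fold.

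At 20 h 19.5% of all genes and 37.8% of those expressed differed in this way. The count of 3 members does not exceed the share of genes expressed. Fos (-2.246, adjusted p = 7.07e-19, filtered 0.00298), Fosb (-2.497, 1.4e-13, filtered 0.00902) and Junb (-1.426, 8.73e-11, filtered 0.00924) fell further in Lat-/- than in WT cells, and these 3 edgeR calls were made in both fits. Library 3 of the Lat-/- cells had the most Lat RNA at 4 h and 20 h (11.29 CPM against 6.787 and 5.694, and 17.16 CPM against 11.68 and 9.908) and also the most Fos, Fosb, Fosl1, Fosl2 and Atf3. Junb, Jun and Batf were instead the lowest in library 3 at 4 h (361.6, 93.69 and 33.61 CPM) and the highest in it at 20 h. The part of this remaining Lat RNA in the levels was not tested.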

How the results depend on the processing

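Of the 38 counts of members called, 37 were within 1.5 times of the values given under DESeq2, 38 with RLE factors, 38 with library totals, 37 after the expression filter, 37 with only the compared groups and 38 by the adjusted p alone. The difference of the 4 h change between Lat-/- and WT cells counted 3 members in place of 5 under DESeq2 and 3 after the expression filter. That of the 20 h change between Cd5-/- and WT counted 1 in place of 0 with only the compared groups and 1 without both libraries that went against their labels. Leaving out 1 library gave 0 to 1 for Cd6-/- and 0 to 1 for Cd5-/-Cd6-/- against WT at 20 h, and 3 to 5 for the 4 h change in Lat-/- cells; the count stayed within 1.5 times in 273 of 276 such fits. The block for the library number left all 38 counts within 1.5 times. It changed 4 calls, all in comparisons in which the libraries were not taken to be paired: Jun and Batf3 in WT from 4 h to 20 h in the receptor set (-1.06 and 2.59, called), Junb in WT of the LAT set from 4 h to 20 h (-0.992, lost) and Jun in the difference of the 4 h change (0.963, lost). Scaling by library totals moved the median of all genes at 4 h in WT by -0.245 and -0.238. The cause of these shifts was not tested. Depth limits Jund, Batf3 and, at 0 h, Fosl1 and Atf3, and 3 libraries per condition limit the rest.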

Other observations

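From 4 h to 20 h, Jun fell by 1.55 on the log2 scale in Cd6-/- and by 1.55 in Cd5-/-Cd6-/- cells, both called in edgeR (adjusted p = 0.00226 and 0.00218, filtered 0.043 and 0.0417). In WT cells the fall of 1.05 was not called, but it was with the block, with only the compared groups and without any 1 of 3 single libraries, and the difference between these falls was not tested. Junb fell by 1.11 in Cd6-/- cells over the same time (adjusted p = 0.0018 in edgeR, filtered 0.0322), a call that was lost without library 1 of 20 h (-0.979).

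In Lat-/- cells Jun at 4 h over 0 h was -0.0491, -0.132 and -2.63 on the log2 scale for libraries 1, 2 and 3. Libraries of these times were not taken to be paired and share only a number, so the values describe no change within a preparation. The antisense gene Junos, which overlaps Jun, had 0 to 13 counts per library in the receptor set and 1 to 17 in the LAT set.

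Batf3 was called higher at 20 h than at 4 h in Cd5-/- (3.38), Cd6-/- (2.79) and Cd5-/-Cd6-/- cells (2.95), but with at most 29 counts in a library of the set these values lie near the floor. In Cd6-/- the call was lost without library 1 of 4 h (2.22, adjusted p = 0.124 in edgeR), library 2 of 4 h (2.82, 0.0577) or library 3 of 20 h (2.27, 0.131).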
